A study of Araneus ventricosus with 24 samples.

Results

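The cerebral ganglia of the orb-weaving spider *Araneus ventricosus* were compared between spiders exposed for 30 days to cadmium and lead together and spiders exposed to cadmium alone. Both groups carry the cadmium exposure, so the labelled difference between them is lead. The comparison rests on 2 combined libraries (replicates 1 and 2) and 3 cadmium libraries (replicates 1, 2 and 3), which are 5 of the 24 deposited columns. The third combined column holds the same count as replicate 1 in every cluster and was left out. Over the whole series 20 distinct libraries remain. They come from 2 tissues, the ganglia and the ampullate silk gland, each untreated or given cadmium, lead or both. The sources used here give no doses, sex or age and no number of animals behind a library. Nothing in the labels says that libraries of a group came from separate spiders, so p-values measure the spread between these libraries, which may be technical.

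The cerebral ganglia are the brain of the spider, where neurons and glia sit close to muscle, hemolymph and branches of the midgut. Cadmium and lead are metals with no known use in animal cells: both bind thiols, displace zinc or calcium from proteins and cause oxidative stress, and lead is known above all as a poison of the nervous system and of heme synthesis. Animal cells answer such metals with metallothioneins, glutathione, antioxidant enzymes and chaperones. Detoxifying enzymes such as cytochrome P450s respond to many foreign compounds.

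RNA was read as assembled clusters, each named by its closest protein in a database. Several clusters can carry the same name and may be parts of 1 gene, and a name says only which known protein is most alike. Levels are in CPM (TMM-scaled counts, relative to library size), given for combined replicates 1 and 2 and then for cadmium replicates 1, 2 and 3. They are not corrected for length and are compared only between libraries. Differences are log2 of combined over cadmium ± SE. A cluster was called where the adjusted p was under 0.05 (edgeR quasi-likelihood test, Benjamini-Hochberg over all clusters tested).

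The 5 libraries held 16055611 to 18206370 estimated reads. Log2 CPM correlated at 0.894 to 0.908 among the cadmium libraries, at 0.901 between the combined libraries, and at 0.82 to 0.858 between the groups. The libraries also differed in features other than the spider's nuclear genes. The mean fragment length implied by the deposited length correction was 272.6 to 281.2 bases in the combined libraries and 247.9 to 261.9 bases in the cadmium libraries. The most abundant mitochondrial cluster held 11.8% to 12.6% of counts with both metals and 18.4% to 20.3% with cadmium. The ganglia libraries with lead alone stood on the combined side in both measures, at 271.1 and 277.5 bases and 12.5% and 13.6%. Every combined library carries lead and no cadmium library does, and the labels give no date or batch: an effect of lead and a difference in preparation cannot be told apart.

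Of 38659 clusters tested, 351 (0.908%) were called. Of these, 249 (0.644%) were higher with both metals and 102 (0.264%) were lower. The median log2 difference of all clusters was -0.05. Most calls lay close to the threshold: 98 had an adjusted p under 0.04, 43 under 0.03 and 7 under 0.01, and 6898 clusters had an unadjusted p under 0.05. In all 351 the combined and cadmium libraries did not overlap, against 18.3% of all tested clusters with both combined libraries above and 17.0% with both below every cadmium library.

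**Figure D1:**
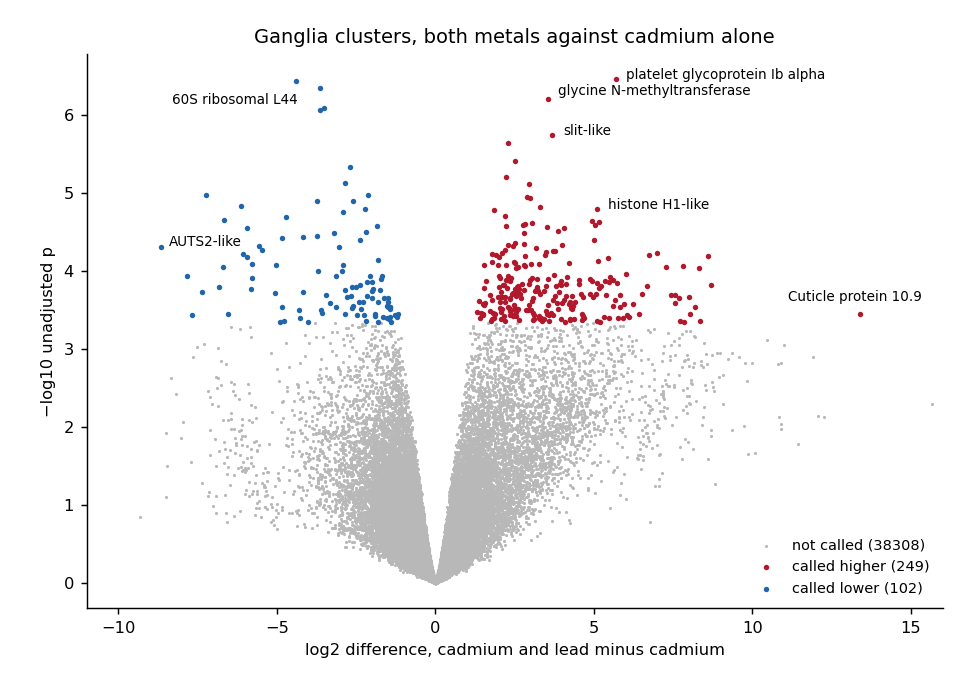
Each point is 1 of 38659 ganglia clusters, with the log2 difference between both metals and cadmium alone on the horizontal axis and −log10 of the unadjusted p on the vertical axis. The 249 clusters called higher (red) and the 102 called lower (blue) lie above the grey clusters that were not called; 7 reached an adjusted p under 0.01.

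The number of calls depended on single libraries. Leaving out each of the 10 ganglia libraries in turn gave 8 to 838 calls. Without combined replicate 2 there were 8, without cadmium replicates 1, 2 and 3 there were 21, 13 and 11, and without untreated replicate 1 there were 15. All 351 clusters kept their direction in all 10 of those fits, which was largely fixed in advance because their groups did not overlap. Of the 351, 41 were still called in at least 5 of them and 3 in every one. With all 20 libraries of both tissues in 1 fit, 2 clusters were called, both lower.

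The calls that stayed in all 10 fits without a library were glycine N-methyltransferase, a cluster named platelet glycoprotein Ib alpha chain, and 1 cluster with no description. Neither of the named ones was called in the fit of all 20 libraries. Glycine N-methyltransferase uses S-adenosylmethionine to methylate glycine and so disposes of surplus methyl groups. It was read at 36.4 and 28.2 CPM with both metals and at 2.38, 3.05 and 2.88 CPM with cadmium. Both combined libraries stood far above the cadmium ones, and the cadmium libraries were close to the untreated ones (3.26, 3.41 and 3.19 CPM). The log2 difference was 3.54 ± 0.33 (adjusted p = 0.00547). The second is a leucine-rich repeat protein named after a vertebrate platelet receptor. It had 11.8 and 21.9 CPM against 0.306, 0.287 and 0.366 CPM, a log2 difference of 5.68 ± 0.51 (adjusted p = 0.00547), again with no overlap.

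Among the other clusters with the smallest p-values, picked after their values were seen, several have roles in the nervous system or in development. The slit-like cluster, named after the secreted ligand that steers axons through Robo receptors in *Drosophila*, had 48.3 and 58.6 CPM against 6.28, 3.68 and 2.56 CPM. It was higher in both combined libraries and lacked overlap (log2 3.68 ± 0.39, adjusted p = 0.00994). GTP cyclohydrolase 1 makes the first intermediate of tetrahydrobiopterin, the cofactor for dopamine and serotonin synthesis. Its level was 41.8 and 38.5 CPM against 5.21, 3.85 and 6.07 CPM (log2 2.99 ± 0.39, adjusted p = 0.0256). A cluster named Armadillo, the beta-catenin of *Drosophila*, had 28.4 and 29.0 CPM against 3.45, 5.17 and 3.92 CPM (log2 2.77 ± 0.39, adjusted p = 0.0279). A histone H1-like cluster, whose closest protein is that of a wasp, had 13 and 16.1 CPM against 0.23, 0.805 and 0.209 CPM (log2 5.09 ± 0.68, adjusted p = 0.0263).

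**Figure D2:**
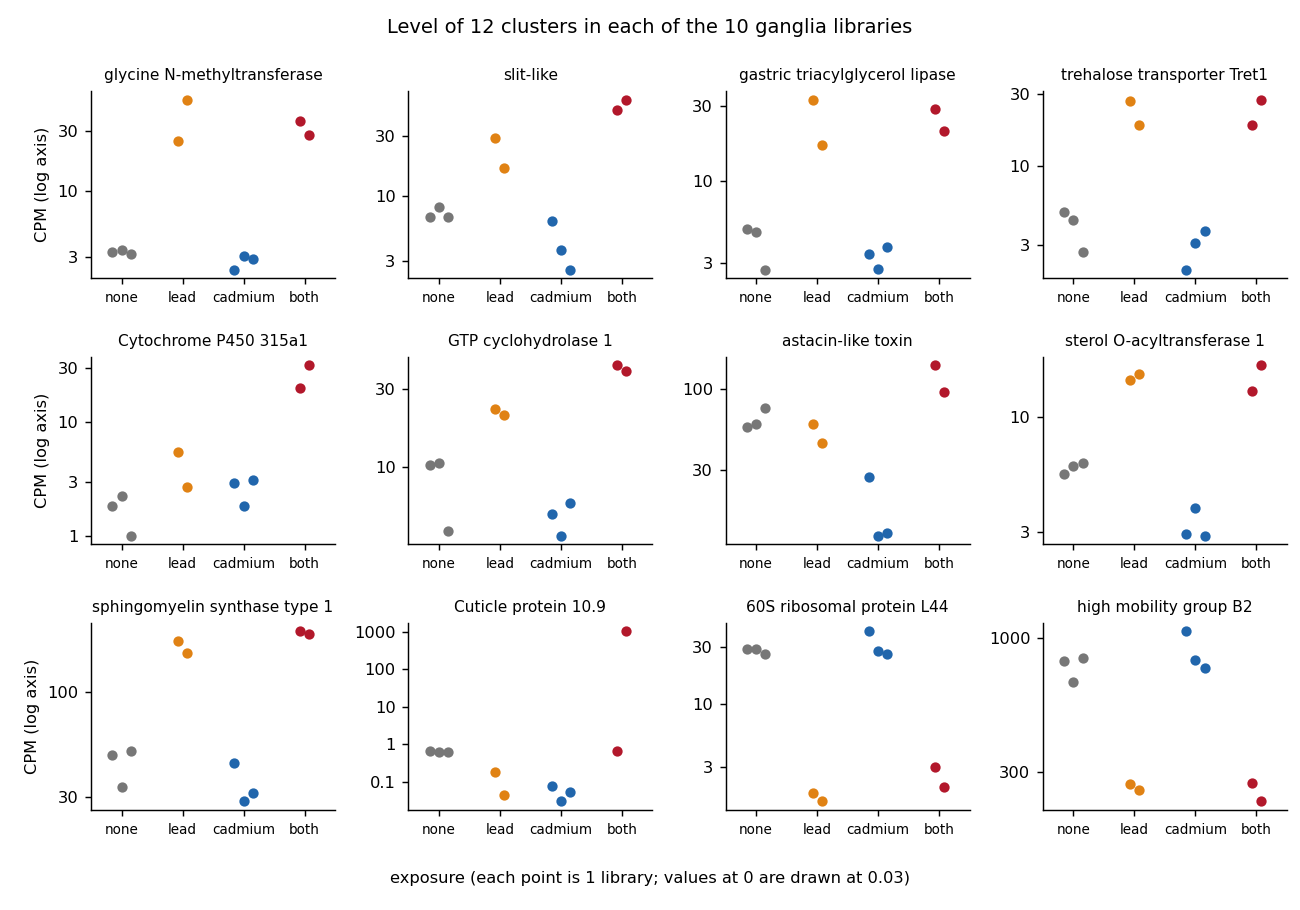
Each panel shows the CPM (log axis) of 1 of 12 called clusters, 1 point per ganglia library, for no exposure, lead, cadmium and both metals. Glycine N-methyltransferase, the lipase, the trehalose transporter and the sphingomyelin synthase are high in all 4 libraries with lead, cytochrome P450 315a1 is high mainly with both metals, cuticle protein 10.9 is high in combined replicate 2 only (1032 CPM), and ribosomal protein L44 and high mobility group B2 are low in all 4 libraries with lead. A value at 0 is drawn at 0.03.

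Enzymes and carriers of fat were among the clusters called higher, which were 0.644% of all tested. Of 51 tested clusters named as lipases or colipases, a family grouped after the values were seen, 7 were called higher and none lower, with a median log2 difference of 1.45 against -0.05 over all clusters. Pancreatic triacylglycerol lipase, a digestive enzyme that splits triglycerides, had 338 and 240 CPM with both metals and 62.2, 43.2 and 42.5 CPM with cadmium (log2 2.55 ± 0.42, adjusted p = 0.0367). Gastric triacylglycerol lipase had 28.6 and 20.9 CPM against 3.45, 2.76 and 3.82 CPM (log2 2.88 ± 0.37, adjusted p = 0.0256). In each the groups were well apart. Pancreatic lipase-related protein 2 (log2 3.33 ± 0.64), colipase-like protein 1 (3.03 ± 0.51), group XV phospholipase A2, a lysosomal enzyme (3.0 ± 0.48), a phospholipase A2 (2.84 ± 0.54) and the monoacylglycerol lipase ABHD12 (1.51 ± 0.28) were also called, with adjusted p of 0.0365 to 0.0483.

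Cholesterol and membrane lipid genes included several calls, where 0.644% of all clusters were called higher. Sterol O-acyltransferase 1, which stores cholesterol as esters, had 13.1 and 17.1 CPM against 2.91, 3.85 and 2.88 CPM (log2 2.23 ± 0.27, adjusted p = 0.0217). Niemann-Pick C1, which exports cholesterol from lysosomes, had 347 and 240 CPM against 101, 94.2 and 110 CPM (1.53 ± 0.29, adjusted p = 0.0443). Scavenger receptor class B member 1, a lipoprotein receptor in mammals, differed by 1.54 ± 0.27 and a cluster like the steroidogenic acute regulatory protein, which carries cholesterol into mitochondria, by 1.31 ± 0.25. Those 4 were the calls among 17 tested clusters of cholesterol handling, a group made after the values were seen, and its median of 0.15 was near that of all clusters. Phosphatidylcholine:ceramide cholinephosphotransferase 1, a sphingomyelin synthase, had 201 and 196 CPM against 44.6, 28.6 and 31.5 CPM. It combined a high level with closely spaced replicates (log2 2.51 ± 0.29, adjusted p = 0.0167).

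Of 174 tested clusters of fatty acid and ketone metabolism, 2 were called, both higher, a share near the 0.644% of all clusters called higher, and the median was 0.32. A stearoyl-CoA desaturase, which puts the double bond into saturated fatty acids, had 72.5 and 214 CPM against 4.83, 13.4 and 3.5 CPM (log2 4.30 ± 0.75, adjusted p = 0.0409). An elongase of very long chain fatty acids had 101 and 73.2 CPM against 17.2, 26.4 and 19.7 CPM (2.04 ± 0.35, adjusted p = 0.0406). A fatty acid synthase-like cluster was not called, at 1119 and 795 CPM against 2193, 1135 and 3980 CPM (adjusted p = 0.216). Acetoacetyl-CoA synthetase, which activates the ketone body acetoacetate for lipid synthesis, was called higher in 4 of 25 tested clusters. This family was grouped after the values were seen, and its 4 calls are not among the 2 of the fatty acid and ketone list. The foremost of these had 49.9 and 25.4 CPM against 3.29, 2.76 and 1.62 CPM (3.88 ± 0.56, adjusted p = 0.0294).

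Sugar uptake and purine synthesis followed. Trehalose is the main blood sugar of many arthropods, and the trehalose transporter Tret1 had 18.7 and 27.5 CPM with both metals and 2.07, 3.10 and 3.71 CPM with cadmium (log2 2.95 ± 0.36, adjusted p = 0.0226). A sodium-dependent glucose transporter 1 had 1059 and 674 CPM against 253, 228 and 308 CPM (1.72 ± 0.31, adjusted p = 0.0409). These and 2 more were called among 18 tested sugar transporters, again a group made afterwards, whose median was 0.02. Inosine-5'-monophosphate dehydrogenase, which controls the making of guanine nucleotides, was called in 2 clusters. The one named type 1 had 84.8 and 52.3 CPM against 19.8, 17.3 and 22 CPM (1.80 ± 0.28, adjusted p = 0.0348). The bifunctional phosphoribosylaminoimidazole enzyme, an earlier step of purine synthesis whose closest protein is a salmon's, differed by 1.80 ± 0.35 (adjusted p = 0.0484). In all, 3 of 11 tested clusters of purine synthesis, also grouped after the values were seen, were called. Glycolysis and citric acid cycle clusters had no call among 69 and a median of -0.24. For comparison, 0.908% of all clusters were called in either direction and 0.644% were called higher.

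Among the detoxifying enzymes, cytochrome P450s held 10 calls of 209 tested (none lower), where 0.644% of all clusters were called higher, and the median of the list was 0.33. Cytochrome P450 315a1, which in insects hydroxylates the molting hormone precursor in mitochondria, had 20.2 and 31.7 CPM against 2.91, 1.84 and 3.14 CPM (log2 3.30 ± 0.44, adjusted p = 0.0263). Cytochrome P450 2J6 had 21.1 and 25.3 CPM against 2.83, 4.31 and 2.88 CPM (2.79 ± 0.40, adjusted p = 0.0294), and cytochrome P450 2J2 had 17.1 and 21.5 CPM against 3.45, 3.68 and 4.71 CPM (2.28 ± 0.34, adjusted p = 0.034). In each both combined libraries stood above every cadmium library. A more abundant cluster named 2J6, at 392 and 237 CPM against 323, 234 and 90.6 CPM, was not called (0.55 ± 0.57, adjusted p = 0.671). Cytochrome P450 302a1, another enzyme of molting hormone synthesis, had 496 and 506 CPM, but the cadmium libraries spread from 26.7 to 181 CPM and it was not called (adjusted p = 0.198). Flavin-containing (dimethylaniline) monooxygenases, which oxidize nitrogen and sulfur compounds, had 3 calls of 31, in a family grouped after the values were seen. Of 178 clusters of conjugation and export, 1 was called, near the share of all clusters, an ABC transporter of subfamily A (2.34 ± 0.45, adjusted p = 0.0467).

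No call fell among the classical answers to metals, in lists so small that the 0.908% over all clusters would give under 1 call in each. Metallothioneins, ferritins and metal transporters (43 tested), antioxidant enzymes (35), glutathione transferases and synthesis (56), heme synthesis and breakdown (13), heat shock proteins and chaperones (96) and the proteasome (48) had no call in either direction. Their medians were 0.34, 0.18, 0.49, 0.18, 0.03 and -0.18. Ferritin of the spleen middle subunit type had 2079 and 1249 CPM against 1913, 1621 and 1359 CPM (log2 0.03 ± 0.35), and heat shock 70 kDa protein cognate 4 had 2138 and 1757 CPM against 4093, 3331 and 3138 CPM (-0.85 ± 0.31, adjusted p = 0.18). The latter was below every cadmium library without passing the test. The absence of a call does not show equal levels. Both combined libraries gave the metallothionein, ferritin and metal transporter list a larger share of counts than every cadmium library (0.625% and 0.539% against 0.495% to 0.522%). So it was for antioxidant enzymes (0.2205% and 0.258% against 0.167% to 0.194%), glutathione genes (0.267% and 0.186% against 0.122% to 0.172%) and heme genes. Chaperones held less, at 1.01% and 1.02% against 1.165% to 1.435%, and the proteasome overlapped.

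Genes of digestion, venom and immunity made up another part of the calls. Midgut digestion clusters had 5 calls of 136 (none lower) with a median of 1.24, and the venom list had 7 of 242 with a median of 0.97. Over all clusters 0.644% were called higher. These lists share clusters, and the call described next is counted in both. An astacin-like metalloprotease toxin, of a protease family that spiders use in digestive fluid and venom, had 142 and 96.2 CPM against 27.1, 11.4 and 11.8 CPM (log2 2.83 ± 0.40, adjusted p = 0.0279). Techylectin-5A, named after lectins with which horseshoe crabs bind bacteria, was called in 3 of 100 tested techylectin clusters, the foremost at 40.8 and 13.4 CPM against 1.53, 1.38 and 2.35 CPM (3.94 ± 0.67, adjusted p = 0.0406). Papilins, extracellular matrix proteins with protease inhibitor domains, had 3 calls of 38, 1 of them at 172 and 92.9 CPM against 17.3, 6.09 and 8.32 CPM (3.65 ± 0.68, adjusted p = 0.0473). Techylectins and papilins were grouped after the values were seen, because they held calls. The venom list was matched by words in the names: 1 of its calls, Ras-related C3 botulinum toxin substrate 1, is the small GTPase Rac1 and no toxin. Its closest protein is that of a fish, and its 161 reads against 3 give a ratio of 70.8 (exact 95% interval 23.8 to 347, counting error only).

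Lysosome and autophagy clusters had 4 higher calls of 132 and a median of 0.53, where 0.644% of all clusters were called higher. Arylsulfatase B, which removes sulfate from glycosaminoglycans in lysosomes, had 13.3 and 21.5 CPM against 3.6, 2.13 and 0.942 CPM (log2 2.98 ± 0.51, adjusted p = 0.0406). DNA damage-regulated autophagy modulator protein 2 had 12.6 and 22.3 CPM against 2.22, 3.79 and 4.19 CPM (2.35 ± 0.40, adjusted p = 0.0406). Niemann-Pick C1, described above, was the third. Arylsulfatase B was not higher with lead alone, at 3.09 and 2.38 CPM against 6.13, 3.91 and 3.35 CPM untreated.

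Several marker lists differed in their share of counts between the combined and cadmium libraries. Midgut clusters held 0.571% and 0.838% of counts with both metals and 0.156% to 0.289% with cadmium. Venom clusters held 0.881% and 1.31% against 0.369% to 0.447%. The midgut and venom lists share clusters, among them an astacin-like metallopeptidase 1 at 860 and 921 CPM against 610, 144 and 172 CPM. Glial clusters held 0.206% and 0.2% against 0.0901% to 0.103%. Untreated libraries spread widely, at 0.355%, 0.626% and 0.149% for midgut clusters and 0.601%, 0.827% and 0.288% for venom clusters. For glial clusters they held 0.138%, 0.234% and 0.07%. Untreated replicate 2 thus lay above combined replicate 1 for midgut and above both combined libraries for glia. Eye clusters held 0.148% and 0.203% against 0.0629% to 0.105%, and reproductive tissue clusters 0.0665% and 0.0748% against 0.0426% to 0.0594%. The lists were matched by words in the names. The most abundant eye members were retinal dehydrogenases 1 and 2, and the most abundant glial ones were glutamine synthetases. For reproductive tissue they were apolipophorins and a sperm-associated antigen 7-like protein. Whether such names mark these tissues in this spider was not tested. In these 5 lists, and in the cuticle list described next, both combined libraries lay above all cadmium libraries. Hemolymph and hemocyte clusters held 2.77% in combined replicate 1 and 0.397% in replicate 2 against 0.255% to 0.880%, and muscle clusters 10.2% and 6.39% against 7.19% to 11.3%. Neuronal clusters held 0.126% and 0.301% against 0.0992% to 0.211%. For muscle, hemolymph and neurons the groups overlapped. The part of tissue makeup in the calls above was not tested, and in such bulk libraries a different number of cells and a different RNA content per cell cannot be told apart.

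**Figure D3:**
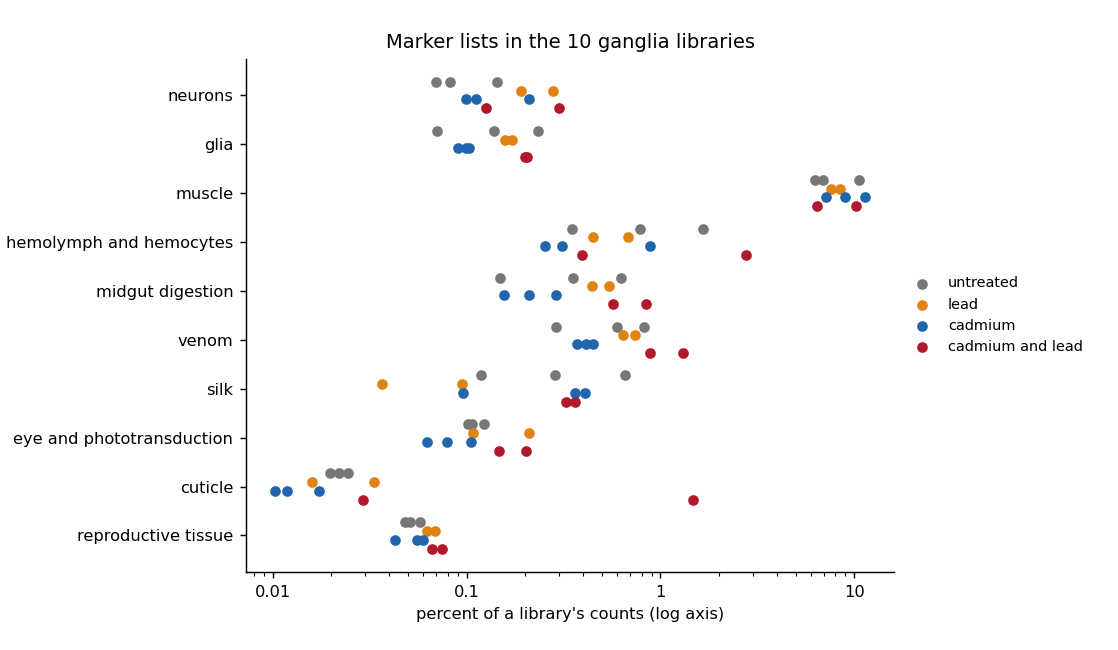
Summed share of each library's counts (log axis) in 10 marker lists, 1 point per ganglia library, colored by exposure. With both metals the midgut, venom, glial, eye, reproductive tissue and cuticle shares lie above all 3 cadmium libraries, the muscle and neuronal shares overlap, and the cuticle share reaches 1.47% in a single combined library.

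Cuticle clusters showed how far 1 library could carry a value. They held 1.47% of counts in combined replicate 2 and 0.0293% in replicate 1, against 0.0103% to 0.0174% with cadmium. Cuticle protein 10.9 had 1032 CPM in replicate 2 and 0.679 CPM in replicate 1, with 0.0766, 0 and 0.0523 CPM in the cadmium libraries. Its 22103 reads against 2 give a ratio of 14570 (exact 95% interval 4033 to 120300, counting error only), which stands on replicate 2. Of 60 tested cuticle clusters, 4 were called, all higher, where 0.644% of all clusters were called higher. In 31 of the 60, combined replicate 2 was over 10 times as high as replicate 1. The median of the list fell from 3.29 to 0.02 without replicate 2. A bromodomain-containing protein 4 cluster had the same shape, at 2.35 and 137 CPM against 0.0766, 0.575 and 0.105 CPM. Among the 4 cuticle calls, Cuticle protein 16.8 was high in both combined libraries (8.71 and 11.2 CPM against 0.69, 0.402 and 0.209 CPM). So was chitin synthase chs-2, an enzyme that makes chitin (23.3 and 20.5 CPM against 3.06, 6.50 and 3.24 CPM). A more abundant cluster named cuticle protein 16.8-like had 0.494 and 1160 CPM against 0, 0.632 and 0.157 CPM. That cluster was not called (adjusted p = 0.061). Silk clusters had a median of 2.03 and no call among 48, of which 35 had a positive difference. Their summed share overlapped between the groups, at 0.326% and 0.361% of counts against 0.0956% to 0.41%. The 2 most abundant, major ampullate spidroin 2 and flagelliform fibroin, had negative differences (log2 -0.96 ± 0.91 and -2.26 ± 1.36).

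Several protein families with many clusters were found among the calls only when their names were read afterwards. Of 350 tested clusters of MATH, BTB/POZ and speckle-type POZ proteins, a family that includes substrate adaptors of cullin-3 ubiquitin ligases, 10 were called higher and none lower, with a median of 0.96. A speckle-type POZ protein had 3.34 and 2.48 CPM against 0.0766, 0.115 and 0.0523 CPM (log2 5.05 ± 0.71, adjusted p = 0.0279), and BTB/POZ domain-containing protein 6-A had 155 reads against 1, a ratio of 204 (exact 95% interval 36.1 to 8122, counting error only). These clusters were nearly silent with cadmium. Nose resistant to fluoxetine proteins, membrane proteins first known from drug resistance in *Caenorhabditis elegans*, had 6 calls of 50 and a median of 1.18. Putative phosphoenolpyruvate synthases had 4 of 33 and a median of 1.61. Among all clusters 0.644% were called higher, and the median was -0.05. The ubiquitin ligase list as a whole (171 tested) had no call, which is no result about these genes, since 0.908% of all clusters were called.

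Low clusters among the largest differences need the same reading of counts. The fatty acid hydroxylase domain-containing protein 2 had 103 reads in the combined libraries and 1 in the cadmium libraries, a ratio of 136 (interval 23.8 to 5414). A cell wall protein DAN4-like cluster, closest to a snail's, had 96 reads against 2. A cluster named rhoA, a small GTPase of the actin cytoskeleton whose closest protein here is a nematode's, had 22.9 and 23.6 CPM against 0.23, 0.92 and 0.0523 CPM (log2 5.82 ± 1.06, adjusted p = 0.0448). A solute carrier family 12 member 1-like cluster, named after a carrier of sodium, potassium and chloride, had 18.7 and 10.7 CPM against 0, 0.575 and 0.419 CPM (5.38 ± 0.95, adjusted p = 0.0409). All were above every cadmium library.

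Nerve signalling lists held few calls, which is no result about these genes, since 0.908% of all clusters were called. Synaptic vesicle release (86 tested), monoamines (34), neuropeptides and their receptors (59) and calcium signalling (55) had none. Ion channels (144) and the cholinergic list (61) each had 1 lower call, and glutamate, GABA and glycine receptors and transporters (99) had 1 higher call. The ion channel call was a short cluster named voltage-dependent anion channel 2, a protein of the outer membrane of mitochondria. The glutamate call was a glutamate receptor-interacting protein 2-like cluster, named after a scaffold protein and no receptor (log2 4.37 ± 0.86, adjusted p = 0.0486). Axon guidance and neural adhesion clusters had 2 higher calls of 205. These were a leucine-rich repeat and immunoglobulin-like domain-containing cluster (3.27 ± 0.63, adjusted p = 0.0483) and a carboxypeptidase N subunit 2-like cluster (3.26 ± 0.52, adjusted p = 0.0365), which the word search also placed among the midgut calls; the slit-like cluster is not in the list. Protein argonaute-3, a slicer of transposon RNA in the *Drosophila* germ line, was the call among 24 Piwi, Argonaute and Dicer clusters (11.7 and 6.21 CPM against 0.69, 1.26 and 1.15 CPM, log2 3.10 ± 0.60, adjusted p = 0.0473). A more abundant cluster of that name, at 73 and 72 CPM against 104, 67.3 and 84.2 CPM, was not called (-0.23 ± 0.26, adjusted p = 0.692). Nor was another, at 94.8 and 46.4 CPM against 41.2, 45.4 and 24.5 CPM (0.93 ± 0.58, adjusted p = 0.443). The cholinergic call was an acetylcholine receptor subunit alpha-type acr-16, of 405 bases, at 9.82 and 10.4 CPM against 36.1, 27.6 and 29.0 CPM (log2 -1.61 ± 0.29, adjusted p = 0.0409). Both combined libraries were below all cadmium libraries. A glutamate-gated chloride channel cluster had 31.8 and 95.6 CPM against 473, 90.6 and 179 CPM and was not called (adjusted p = 0.356). Several of these list medians changed sign without combined replicate 2, for example that of ion channels from 0.26 to -0.23.

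**Figure D4:**
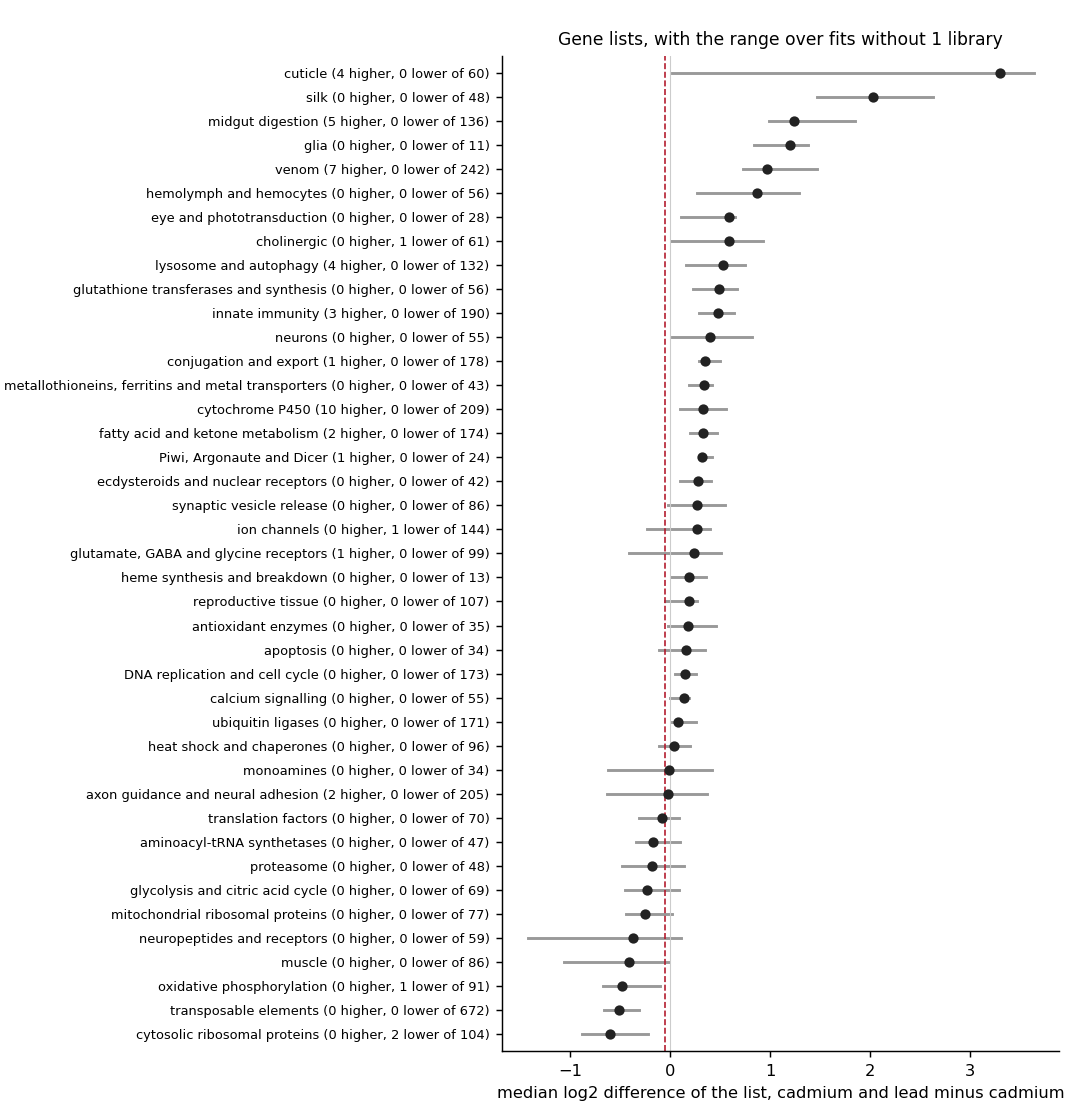
Median log2 difference of 41 gene lists between both metals and cadmium alone (points), with the range over 10 fits that each leave out 1 ganglia library (bars); the dashed line marks the median of all clusters, -0.05. The cuticle bar runs from 0.02 to 3.64, the midgut bar from 0.99 to 1.85, and the cytosolic ribosomal bar from -0.88 to -0.23.

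The lower calls were fewer and had fewer descriptions. Of 102, 18 (17.6%) carried a description, against 173 of 249 (69.5%) of the higher calls and 43.5% of all tested clusters. Of the same 102, 22 (21.57%) matched other organisms, 1 of them with a description, Pseudomonas the most frequent named genus among them with 4, against 0.28% of all tested clusters and 1 of the higher calls. The 63 others had no description and no match to another organism. Several described lower calls were short clusters, for example complement factor B-like (356 bases, 2.66 and 1.77 CPM against 22.3, 14.2 and 13.2 CPM) and a sushi and von Willebrand factor domain cluster (359 bases, 1.24 and 1.17 CPM against 12.8, 5.4 and 4.87 CPM). A cluster of 369 bases carries the name P30 adhesin, a bacterial protein, but its closest protein is an uncharacterised spider protein. Lower calls were also shorter, with a median length of 953 bases against 1648 for the higher calls and 1295 for all tested.

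Among the described lower calls, putative 60S ribosomal protein L44, of the large ribosomal subunit, had 3.03 and 2.06 CPM with both metals and 40.8, 28 and 26.2 CPM with cadmium (log2 -3.64 ± 0.33, adjusted p = 0.00547). It was called in 9 of the 10 fits without a library. The 40S ribosomal protein S5 cluster had 11 and 9.90 CPM against 89.8, 44.2 and 32.9 CPM (-2.41 ± 0.45, adjusted p = 0.0433). Those were the 2 calls among 104 cytosolic ribosomal clusters, whose median was -0.60 and of which 7 had a positive difference. Among all clusters 0.264% were called lower. The list held 2.53% and 2.25% of counts against 2.85% to 3.43%. The part of the mitochondrial share in this was not tested. The oxidative phosphorylation list had a median of -0.49 and 1 call of 91, NADH dehydrogenase 1 alpha subcomplex subunit 6, with 0 reads in both combined libraries against 80 in the cadmium libraries, at least 20.2-fold lower (floor of 3 reads over the group).

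Several other described lower calls carry the names of DNA-binding or RNA-binding proteins. High mobility group protein B2, an abundant DNA-bending protein, had 271 and 230 CPM against 1068, 826 and 768 CPM (log2 -1.82 ± 0.29, adjusted p = 0.0365). Zinc finger protein AEBP2, an accessory subunit of Polycomb repressive complex 2 in mammals, had 4.88 and 5.33 CPM against 31.1, 68.7 and 103 CPM (-3.73 ± 0.55, adjusted p = 0.0308). Zinc finger protein jing, its *Drosophila* relative, had 4.14 and 5 CPM against 17.3, 48.6 and 70.6 CPM (-3.31 ± 0.61, adjusted p = 0.0433). In these the combined libraries lay close together, and cadmium replicate 1 was the lowest cadmium library for both zinc finger proteins. The autism susceptibility gene 2 protein-like cluster, in mammals also a partner of Polycomb proteins, had 0.309 and 0.140 CPM against 3.83, 13.1 and 12.6 CPM (-5.45 ± 0.84, adjusted p = 0.0348). Heterogeneous nuclear ribonucleoprotein 27C had 80.9 and 64.9 CPM against 244, 218 and 159 CPM (-1.51 ± 0.28, adjusted p = 0.0448). The zinc finger RNA-binding protein (-1.43 ± 0.27) and U1 small nuclear ribonucleoprotein (-1.43 ± 0.27) were called as well. Of 113 tested RNA processing clusters, a family grouped after the values were seen, 3 were called lower and none was called higher. Over all clusters 0.264% were called lower. The voltage-dependent anion channel 2, on a cluster of 467 bases, had 37.2 and 26.8 CPM against 208, 117 and 102 CPM (-2.15 ± 0.39, adjusted p = 0.0409). A longer and more abundant cluster of that name, of 979 bases, was not called (-0.53 ± 0.39, adjusted p = 0.521). It had 646.5 and 410 CPM against 1125, 627 and 536 CPM. Alpha-(1,3)-fucosyltransferase C, which adds fucose to sugar chains, had 3.52 and 4.39 CPM against 17.6, 18 and 12.4 CPM (-2.01 ± 0.37, adjusted p = 0.0409).

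Lead can also be compared in spiders without cadmium, with the lead libraries (2) against the untreated ones (3), which share no library with the combined and cadmium groups. In that comparison 1901 clusters (4.92%) were called. Of the 249 clusters higher with both metals than with cadmium, 221 (88.8%) were also positive with lead alone and 65 were called higher there, where 48.3% of all tested clusters were positive and 2.67% were called higher. Of the 102 lower ones, 100 (98.0%) were negative and 80 were called lower, against 51.7% negative and 2.24% called lower of all tested. Fragment length and the mitochondrial share split by lead in the same way, so lead and preparation cannot be told apart in either comparison. Glycine N-methyltransferase rose by 3.58 ± 0.33 without cadmium (25.2 and 53.7 CPM against 3.26, 3.41 and 3.19 CPM) and by 3.54 ± 0.33 with it. Ribosomal protein L44 fell by 4.06 and by 3.64 on the log2 scale.

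The difference between these differences was tested directly, as the effect of lead with cadmium minus its effect without. No cluster of 38659 was called (0.0%; smallest adjusted p 0.37), and 3920 had an unadjusted p under 0.05. With DESeq2 396 clusters passed, and without combined replicate 1 edgeR called 59. Values at the top of that test are therefore given as values only. A wax ester synthase cluster had 13.2 and 10.7 CPM with both metals and 11, 14.4 and 14 CPM with cadmium, but 24.9 and 31.3 CPM with lead and 6.72, 5.27 and 7.08 CPM untreated (difference of differences -2.28, unadjusted p = 0.000104 by edgeR). A flavin-containing amine oxidase, an enzyme that breaks down monoamines, had 5.31 and 2.94 CPM with both metals, 0.613, 0.230 and 0.314 CPM with cadmium, 0.234 and 0 CPM with lead and 1.70, 1.30 and 1.79 CPM untreated (7.15, unadjusted p = 0.000129 by edgeR). In the former the groups with and without lead are apart only in spiders without cadmium. In the latter they are apart in opposite directions.

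**Figure D5:**
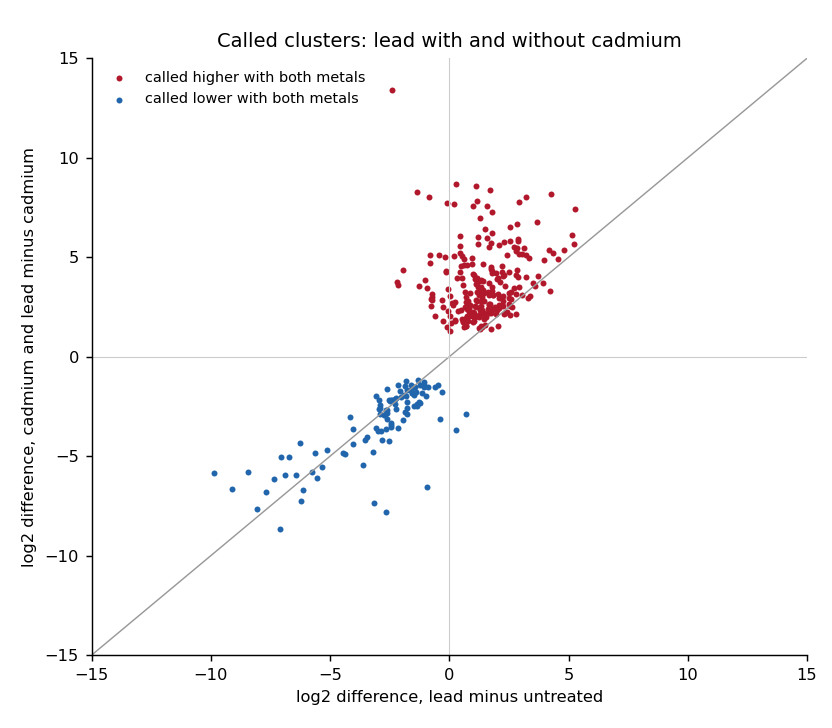
The 351 called clusters, with the log2 difference of lead against untreated ganglia on the horizontal axis and of both metals against cadmium on the vertical axis, which is the comparison that selected them; the line marks equal values. The lower calls (blue) lie along the line, with 100 of 102 negative on both axes, and most higher calls (red) lie above it, with 221 of 249 positive on both.

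The same exposure contrast in the ampullate gland gave 226 calls (0.435%) in the fit of all 20 libraries. Of the higher ganglia calls 157 of 249 (63.1%) were positive in the gland and 4 were called higher there, where 41.4% of all clusters tested in the ganglia were positive and 0.129% were called higher. Of the lower ones 101 of 102 (99.0%) were negative and 24 were called lower, against 58.6% negative and 0.383% called lower. Tested directly, no cluster of 51904 differed between ganglia and gland (0.0% called by edgeR, smallest adjusted p 0.0838), while 4567 had an unadjusted p under 0.05 and DESeq2 called 544. Without combined gland replicate 1, edgeR called 525. Glycine N-methyltransferase differed by 0.15 in the gland (adjusted p = 0.988) and by 3.54 in the ganglia, high mobility group B2 by -2.38 and -1.82, and the platelet glycoprotein cluster by 6.27 and 5.68. The gland values come from the fit of 20 libraries and the ganglia values from that of 10. The difference between tissues did not pass the test for any of them.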

How the data were processed

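RNA of ganglia and ampullate gland was extracted with an RNeasy Mini Plus kit, made into SMARTER mRNA-Seq libraries and sequenced on an Illumina NovaSeq, per the labels' protocols. The deposited expected counts are reads estimated per assembled cluster, and the FPKM table is the same reads scaled by length and column total, by the authors. Which programs assembled, aligned and counted is not given in the sources used here. FPKM served only to work out the mean fragment length that the length correction implies.

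Counts were rounded to whole numbers. All 10 distinct ganglia libraries entered 1 edgeR 4.0.16 quasi-likelihood fit in R 4.3.3 (filterByExpr, TMM, robust, 1 mean per group), and p-values were adjusted by Benjamini-Hochberg over all clusters tested. The difference between lead effects used the same fit, and that between tissues a fit of all 20 libraries. DESeq2 1.42.0 was an alternative. Columns with identical values were used once. The fit was tested on simulated data.

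Clusters, 41 lists and all rules were chosen with earlier results of these data known. Named by rule were, among called and described clusters of at least 1 CPM whose groups did not overlap, the 15 largest differences in each direction, up to 3 called and the 2 most abundant members of each list, and the 3 smallest p in each direction of each difference test. Chosen after their values were seen were the clusters with the smallest p, the 13 families, the 20-library fit, and the exclusions that keep conserved spider genes out of the clusters of other organisms. A first run repeated the filter in every fit without a library. The clusters tested were then held as in the full fit, and counts both ways are given below. Lists are described by counts and medians, with no set test. Intervals on read ratios cover counting error only.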

Additional observations from a re-analysis of the deposited data

Results flagged for a closer look

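Clusters matched to 4 other genera were read in both combined ganglia libraries above every cadmium and untreated ganglia library. Clusters matched to Homo had 153 and 22.3 CPM with both metals, at most 1.76 CPM with cadmium, and 39.3 and 3.34 CPM with lead alone. Those matched to Rattus had 42.1 and 5.75 CPM with both metals, at most 0.659 CPM with cadmium, and 40.4 and 38.8 CPM with lead alone. Meyerozyma, a yeast, had 3.5 and 3.17 CPM with both metals and 0 in all cadmium libraries. Sphingobium, a bacterium, had 4.38 and 1.61 CPM against at most 0.0618 CPM with cadmium. Of 53 genera with 1 CPM, these 4 were above and 28 were below all cadmium libraries in both combined libraries. The 4 were also higher in both libraries with lead alone than in every untreated library. Clusters matched to synthetic sequence had 8741 CPM in cadmium replicate 3. They had 37.3 and 88.9 CPM in cadmium replicates 1 and 2, and 252.7 and 294.5 CPM with both metals. All were assigned by nucleotide match alone, so their origin is not certain. Their part in the calls was not tested beyond the fit without them.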

How the results depend on the processing

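The number of clusters called between both metals and cadmium, 351 in the edgeR fit, changed with the processing. RLE scaling (340 calls), TMMwsp (347), a minimum of 1 CPM in 2 libraries (387) and removal of each library's trend with cluster length (341) stayed within 1.5 times that number. DESeq2 called 2689 clusters, no filter on low counts 3094, only the groups compared 550, all deposited columns with their copies 4364, the fit without other organisms and the mitochondrial genome 225, a test against a 2-fold difference 7, and all 20 libraries in 1 fit 2. Leaving out 1 library gave 8 to 838 calls. Where the filter on low counts was repeated in each such fit, 21, 13 and 11 were called without cadmium replicates 1, 2 and 3, 312 and 39 without combined replicates 1 and 2, 117 and 131 without lead replicates 1 and 2, and 8, 849 and 743 without untreated replicates 1, 2 and 3. The repeated filter gave 458 with only the groups compared and 4445 with all deposited columns. The lone library left in a group was then assumed to vary like the other groups. All 351, the 101 named among them included, kept their direction in every alternative listed here that gave them a value. Directions were not compared for the repeated filter. Groups did not overlap in any of the 351, so the kept direction is no measure of their stability. Of the 89 named clusters that were not called, 38 changed sign in at least 1 fit without a library. The cause of these changes was not tested.

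With the replicate number as a block 37 clusters were called, 12 higher and 25 lower, of which 32 were among the 351. Deviations of same-numbered libraries correlated at 0.055 and -0.097. With 2 combined libraries the deviations of replicates 1 and 2 mirror each other. These values therefore cannot show whether same-numbered libraries share an animal or a day, and the labels do not say. The difference between lead effects had no call in the edgeR fit, 396 with DESeq2, 1169 with no filter, and 0 to 59 without 1 library. That between ganglia and gland had no call in the edgeR fit, 544 with DESeq2, 1071 with no filter, and 0 to 525 without 1 library. The block gave no call in either. With 2 combined libraries, low clusters rest on few reads.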
